A study of Drosophila melanogaster with 3 samples.

Results

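The salivary glue genes and the digestive enzyme families of the Drosophila melanogaster larva are described here. They were chosen by gene symbol alone: the Sgs glue genes, the Jon (Jonah) proteases, 10 trypsin genes of the alphaTry to lambdaTry series, the Mal-A maltases, the lysozymes LysB, LysC, LysD, LysE, LysP, LysS and LysX, and Eig71Ee, Amy-p, Amy-d, yip7, Ser6, Ser8, Npc2d and Npc2e. Of 13990 genes in the deposited tables, 47 matched. These are 6 glue genes, Eig71Ee, 7 lysozymes, 16 Jonah proteases, 10 trypsins, 3 other serine proteases, 2 amylases and 2 Npc2 genes. The tables held 0 genes with a Mal-A symbol, so the maltases were not analysed here.

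RNA was sequenced from 3 libraries, 1 for each genotype. The Act>Aac11-RNAi library (called the RNAi library) combines the Actin5c-Gal4 driver, which is active in most tissues, with a UAS hairpin against Aac11, the fly counterpart of the mammalian apoptosis inhibitor API5. The library labelled enGFP+Yki+Aac11-IR (the Yki library) names engrailed-GFP, Yorkie and the same hairpin, and no library of that driver without the hairpin was analysed here. The Act>control library (the control) has Act and no hairpin in its label. Per the labels, wandering larvae raised at 25 degrees Celsius were selected by GFP and ground whole, with 10 to 20 animals pooled for each Act genotype, while the cell type field of every sample reads wing disc cells, and the labels do not resolve this. Because each group has 1 library, no difference below has a replicate check, and no p-value or standard deviation is given.

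Glue proteins are secreted by the larval salivary gland and fix the animal to a surface before it pupates. Their genes are switched on by ecdysone late in larval life, reach very high levels in the gland of wandering larvae, and are switched off around pupariation. Jonah proteases and trypsins are gut serine proteases that digest dietary protein, amylases digest starch, and lysozymes cleave bacterial cell walls and in flies act largely as gut enzymes. In a whole wandering larva glue RNA is commonly abundant.

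Levels are FPKM, fragments per kilobase of transcript scaled to library size, as the authors deposited them. Both Act libraries share 1 table and the Yki library has its own, so ratios were formed only between the Act libraries. The depth read from the steps between low FPKM values was about 31300000 fragments for the RNAi library, 18000000 for the Yki library and 6000000 for the control. The RNAi library was thus 5.22 times as deep as the control, and a gene of few fragments is more easily seen in it. For a transcript of 860 nt, 3 fragments correspond to 0.149 FPKM in the RNAi library, 0.262 FPKM in the Yki library and 0.769 FPKM in the control. Aac11 itself measured 78.1 FPKM in the RNAi library, 117 FPKM in the Yki library and 150 FPKM in the control.

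Most of these genes were near or at 0 in every library. At least 1 FPKM was reached by 9 of the 47 in the RNAi library, where 80.3% of all genes reached it. In the Yki library 3 of the 47 did, against 54.9% of all genes. In the control 5 of the 47 did, against 80% of all genes. The members listed at 0 numbered 14 in the RNAi library, 31 in the Yki library and 26 in the control, while over all genes the shares listed at 0 were 6.64%, 24.7% and 11.2% in the same order. All 47 together made up 0.0238% of the summed FPKM of the RNAi library, 0.00119% of that of the Yki library and 0.00928% of that of the control. The gene families differed, however, in which library held their RNA, as the plot of all members shows.

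**Figure D1:**
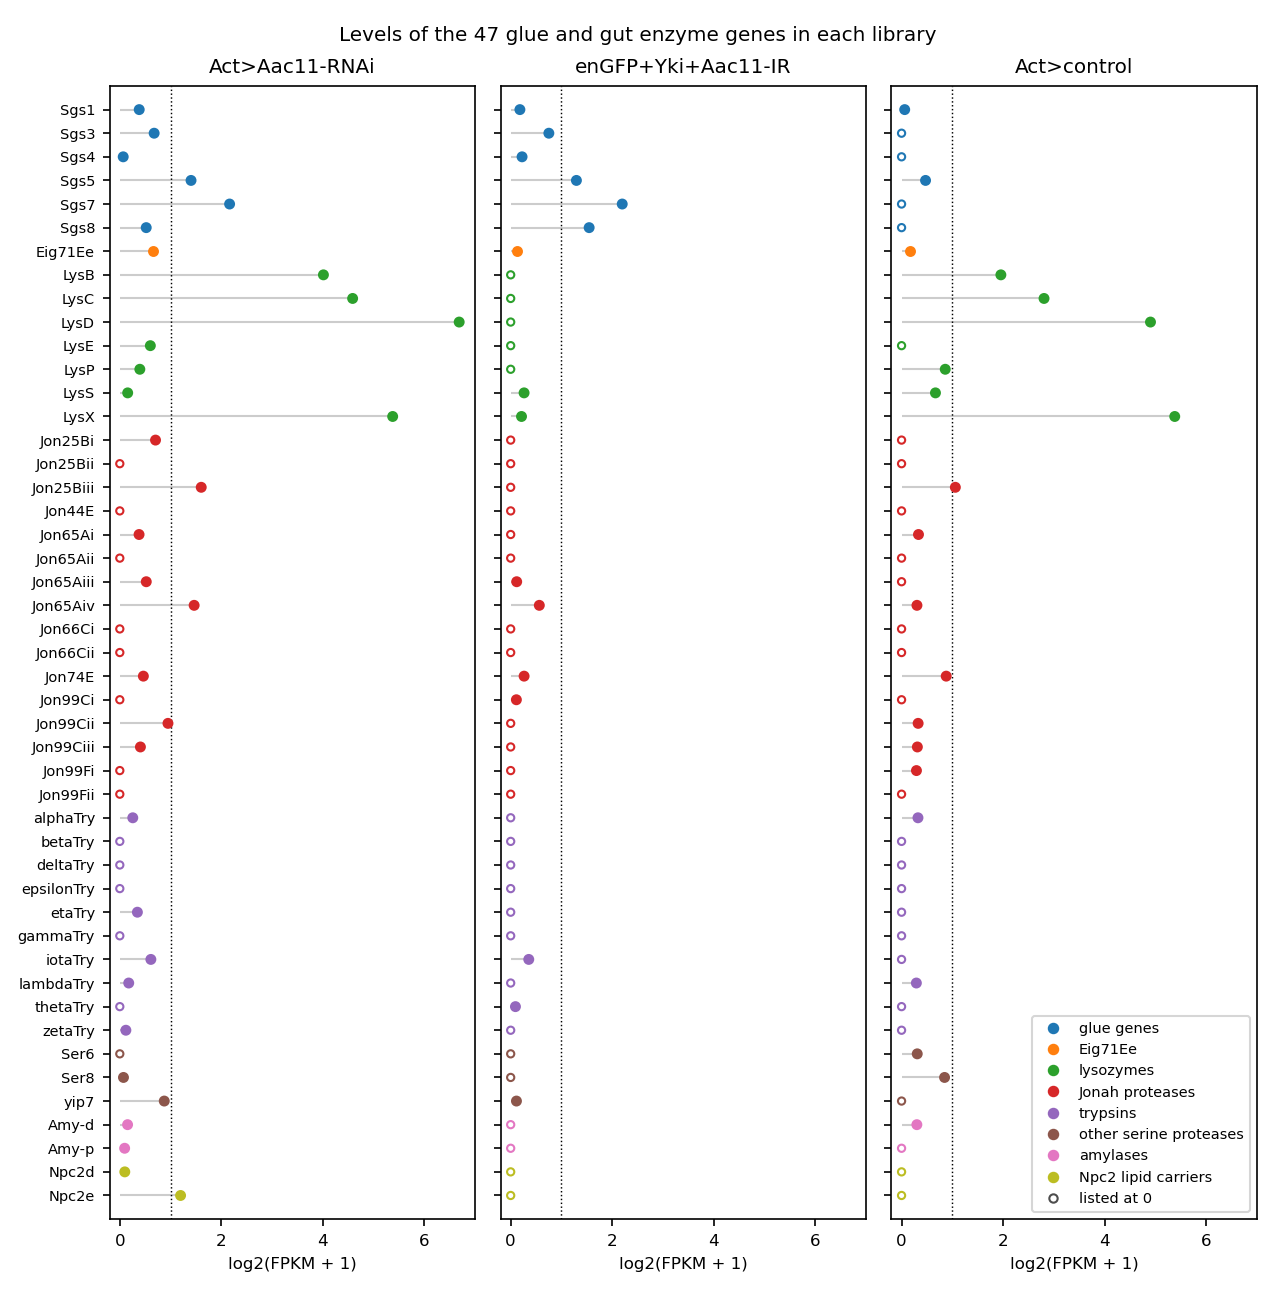
Level of each of the 47 genes on a log2(FPKM + 1) axis, with 1 panel for each library and genes grouped by family. Open circles are genes listed at 0, and the dotted line marks 1 FPKM; lysozymes stand out in both Act libraries and the glue genes Sgs5, Sgs7 and Sgs8 in the Yki library.

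The sets of members above 1 FPKM overlapped in part. In the RNAi library they were LysB, LysC, LysD, LysX, Sgs5, Sgs7, Jon25Biii, Jon65Aiv and Npc2e. In the Yki library they were the glue genes Sgs5, Sgs7 and Sgs8. In the control they were LysB, LysC, LysD, LysX and Jon25Biii, all of which are in the RNAi set as well. The Yki set shares Sgs5 and Sgs7 with the RNAi set and no gene with the control set. In the control, however, 3 fragments of Sgs5 correspond to 1.17 FPKM, so 1 FPKM is near its floor there. Sgs7 and Sgs8 are too short for a floor to be given. The same overlaps over all genes are not given here. Lysozymes made up 91.2% of the summed member FPKM in the RNAi library and 93.6% in the control. In the Yki library the glue genes made up 82.2% of the far smaller member sum, 9.66 FPKM.

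Among the 47, a mean of at least 1 FPKM over both Act libraries was reached by 7, against 81% of all genes. Of these 7, 4 were at least 2-fold higher in the RNAi library on the log2(FPKM + 1) scale, where 3.7% of all 11330 genes that passed the same filter were. Of the same 7, 0 were at least 2-fold below the control, against 17% of all genes. The 4 are LysB, LysC, LysD and Sgs7, and the other 3 are LysX, Jon25Biii and Sgs5. Sgs5 and Sgs7 passed the filter only through the RNAi library, and LysB, LysC and LysD are similar neighbouring copies, so the count of 4 is not of independent genes. Being under 1 FPKM in the control, Sgs5 and Sgs7 could not have been called lower. The median log2 ratio of the 7 was 1.78, and that of all 11330 genes was -0.03. Just outside the filter lay Jon65Aiv, with a mean of 0.996 FPKM, and just inside it Sgs5, with a mean of 1.02 FPKM.

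**Figure D2:**
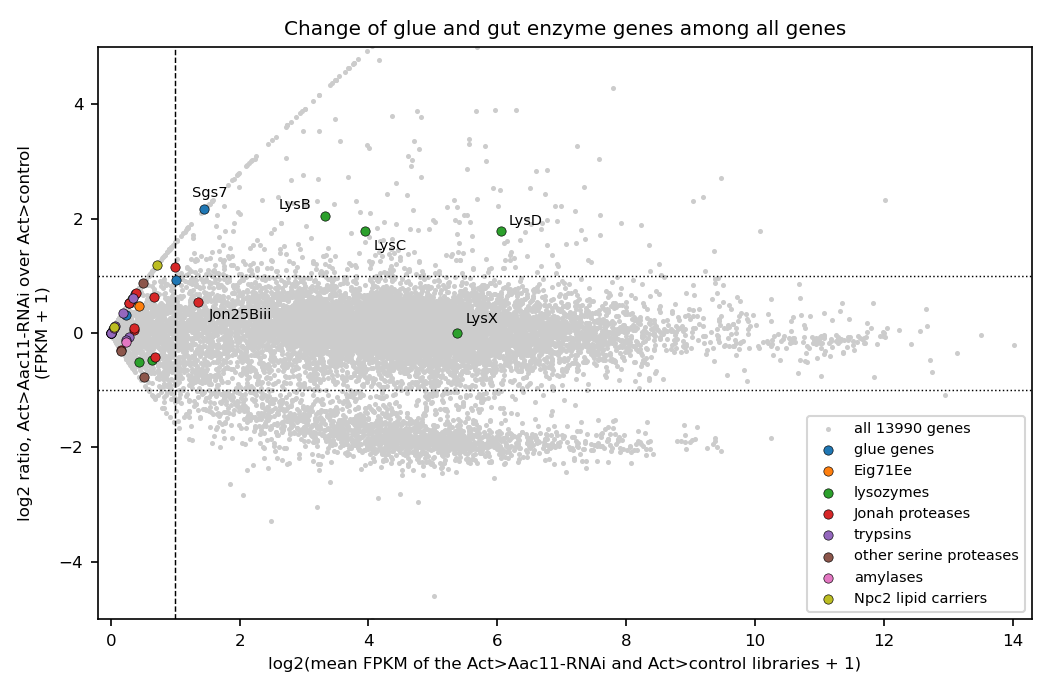
Log2 ratio of the Act>Aac11-RNAi library over the Act>control library, on FPKM + 1, against the log2 mean level of both, for all genes (grey) and the 47 members (coloured by family). Dotted lines mark 2-fold, the dashed line a mean of 1 FPKM, and 34 genes lie beyond the vertical axis; LysB, LysC and LysD sit near 2 on the ratio axis, LysX near 0, and most other members left of the dashed line.

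The lysozymes had the highest summed level of these families in both Act libraries, though not in the Yki library, and their members differed from each other. All 7 genes lie in 33.5 kb of chromosome 3L (Release 6, dm6, 1194739 to 1228238), in the order LysX, LysB, LysC, LysD, LysE, LysP and LysS. LysB to LysS lie within introns of mwh, a planar polarity gene. The genes LysB to LysE are closely similar and are known for expression in the larval and adult midgut. LysS is known from the gastric caeca of the larva, LysP from the adult salivary gland and LysX from the gut at metamorphosis.

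LysD (chromosome 3L, 1210717 to 1211196, minus strand) had the highest level of any member, 102 FPKM in the RNAi library, against 28.9 FPKM in the control, while the Yki library listed it at 0. If that 0 is a true count of 0 fragments, it allows up to 0.652 FPKM, the value of 3 fragments there. Its log2 ratio was 1.78. About 844 fragments lay behind the RNAi value and 47 behind the control value, and the FPKM ratio without a pseudocount was 3.52, with an exact binomial 95% interval of 2.57 to 4.72. That interval covers counting error only and compares these libraries, not the genotypes. In rank, LysD stood at percentile 91.6 of all genes in the RNAi library and at 66.0 in the control.

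LysB and LysC lay on the same side. LysB (chromosome 3L, 1207371 to 1207981) measured 15.1 FPKM in the RNAi library and 2.88 FPKM in the control, a log2 ratio of 2.05. LysC (1210485 to 1210726), annotated by RefSeq as a pseudogene of 242 nt, measured 23.0 FPKM in the RNAi library and 5.99 FPKM in the control, a log2 ratio of 1.78. The Yki library listed 0 for LysB and for LysC. Fragments were read back for neither. At 242 nt, LysC is little longer than the fitted fragment lengths, 215 nt for the RNAi library and 210 nt for the control. Its values may therefore rest on few fragments, most of all in the control. LysE, the remaining copy, measured 0.517 FPKM in the RNAi library, from about 6 fragments, and was listed at 0 in the control and in the Yki library. At the depth of the control, 6 such fragments would have been about 1.13, so the listed 0 does not set the libraries apart.

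Near-identical copies share reads, and LysC overlaps LysD by 10 bases, so the split of reads among these 4 genes is uncertain and their sum is the safer value. Summed over LysB to LysE, the level was 140 FPKM in the RNAi library, against 37.8 FPKM in the control, a ratio of 3.72, and the Yki library listed each of the 4 at 0. Within the sum, LysD took 72.5% in the RNAi library and 76.5% in the control, LysC 16.4% and 15.9%, and LysB 10.8% and 7.62%. Because the split is uncertain and LysC may rest on few fragments, no result is drawn from these proportions. The sum includes LysC and carries that limit too.

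LysX (chromosome 3L, 1194739 to 1195302), at the other end of the cluster, did not share this pattern. It measured 40.5 FPKM in the RNAi library and 40.6 FPKM in the control, a log2 ratio of -0.01. The values came from about 442 fragments in the RNAi library and 86 in the control, and the ratio without a pseudocount was 0.996, with a 95% counting interval of 0.780 to 1.26. With upper quartiles of the Act libraries set equal, its log2 ratio was 0.30, while LysD stood at 2.10. In the Yki library LysX measured 0.159 FPKM, which is about 1 fragment. In the control LysX was thus the highest lysozyme and in the RNAi library LysD was.

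LysP and LysS were low in all libraries. LysP measured 0.315 FPKM in the RNAi library, 0 in the Yki library and 0.815 FPKM in the control, from about 4, 0 and 2 fragments. LysS measured 0.114 FPKM in the RNAi library, 0.201 FPKM in the Yki library and 0.588 FPKM in the control, which is about 1 fragment in each. The counting intervals of their RNAi to control ratios ran from 0.0549 to 4.24 for LysP and from 0.00244 to 15.0 for LysS, so a difference was not detectable at this depth.

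Within the lysozyme cluster, genes of other families did not follow a common direction. The surrounding mwh measured 9.16 FPKM in the RNAi library and 9.01 FPKM in the control, with a log2 ratio of 0.02, and Aplip1, next to LysX, measured 13.8 FPKM in the RNAi library and 14.7 FPKM in the control. CG9119, between LysX and LysB, measured 22.2 FPKM in the RNAi library and 8.86 FPKM in the control, a log2 ratio of 1.24. These 3 genes had 0.224 to 0.751 FPKM in the Yki library. CG32335, between Aplip1 and CG9119, measured 0.0366 FPKM in the RNAi library and 0.190 FPKM in the control and was listed at 0 in the Yki library. All are named for their position, with their values known.

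**Figure D3:**
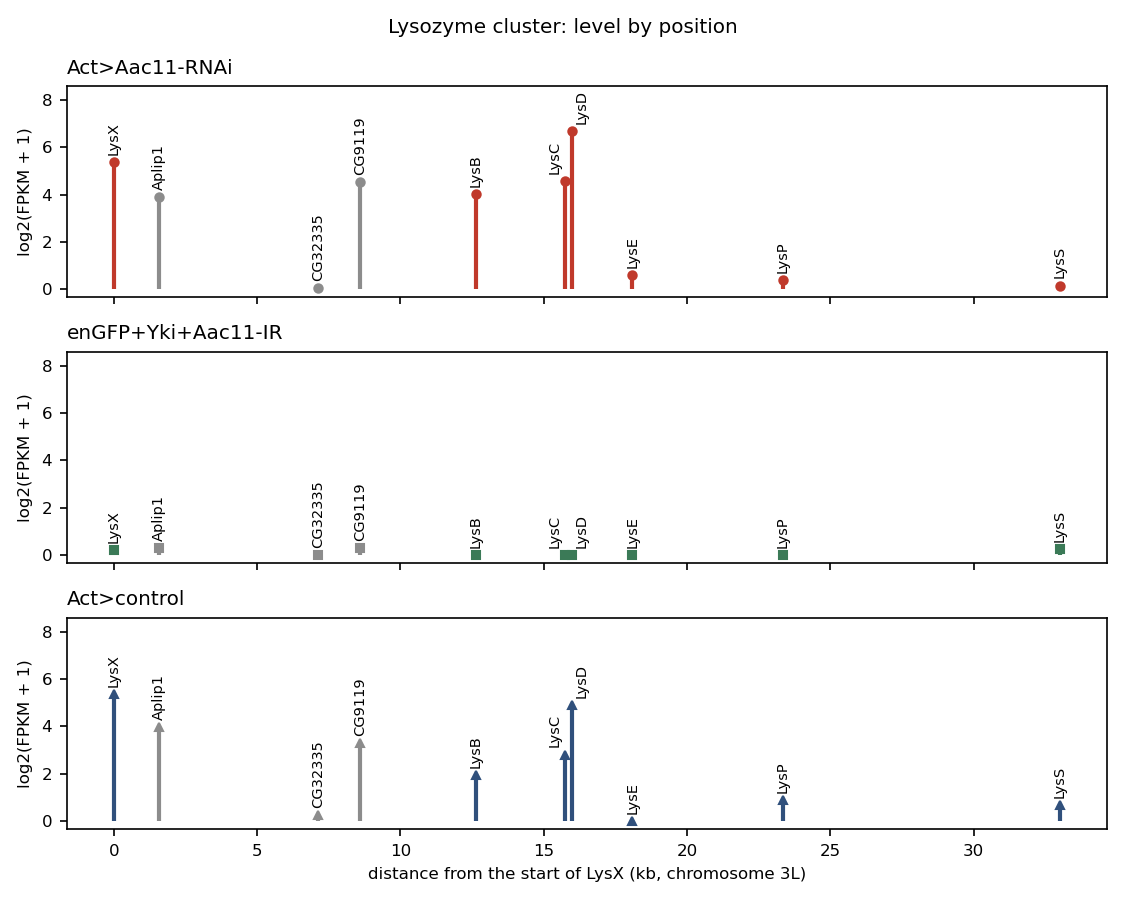
Level, as log2(FPKM + 1), of each gene lying wholly within the LysX to LysS interval against its distance from the start of LysX, with 1 panel for each library; lysozymes are coloured and genes of other families are grey. The surrounding mwh is not drawn; LysB, LysC and LysD are taller in the Act>Aac11-RNAi panel than in the Act>control panel, LysX has nearly the same height in both, and all lines are near 0 in the enGFP+Yki+Aac11-IR panel.

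The glue genes were low in all libraries and were the only family of several genes with every member above 0 in the Yki library. All 6 were above 0 in the RNAi library too, whereas in the control Sgs3, Sgs4, Sgs7 and Sgs8 were listed at 0. The highest glue level in any library was 3.58 FPKM, that of Sgs7 in the Yki library. Summed over the family, the level was 6.50 FPKM in the RNAi library, 7.94 FPKM in the Yki library and 0.431 FPKM in the control.

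Sgs7, a small glue protein gene, measured 3.48 FPKM in the RNAi library and 3.58 FPKM in the Yki library and was listed at 0 in the control. Its log2 ratio of 2.16 therefore rests on the pseudocount, and no ratio without it was formed. Its transcript of 321 nt is too short for fragments to be read back. Whether the listed 0 sets the shallower control apart therefore cannot be told. Sgs8, its divergent neighbour and close relative, measured 0.434 FPKM in the RNAi library and 1.92 FPKM in the Yki library and was listed at 0 in the control. Sgs3, a mucin-like glue protein gene, measured 0.598 FPKM in the RNAi library and 0.684 FPKM in the Yki library, from about 17 and 11 fragments, and was listed at 0 in the control. These 3 genes form the 68C glue cluster, 4.44 kb of chromosome 3L (11508967 to 11513402). If the listed 0 of Sgs3 in the control is a true count, it allows a level of up to 0.556 FPKM, the value of 3 fragments, which is close to its level in the other libraries.

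Sgs5, a glue gene on chromosome 3R (17595362 to 17596112), measured 1.64 FPKM in the RNAi library, 1.45 FPKM in the Yki library and 0.387 FPKM in the control. The fragments numbered about 22, 11 and 1 in the same order, and the RNAi to control ratio of 4.24 had a counting interval of 0.682 to 174. Sgs1, a large mucin-like glue gene on chromosome 2L, measured 0.303 FPKM in the RNAi library, 0.134 FPKM in the Yki library and 0.0437 FPKM in the control, from about 35, 9 and 1 fragments. Its RNAi to control ratio was 6.95, with an interval of 1.13 to 272. Sgs4, an X-linked glue gene inside an intron of dnc, had about 1 fragment in the RNAi library, 2 in the Yki library and 0 in the control.

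Added over the 4 glue genes long enough for fragments to be read back, 75 fragments lay in the RNAi library, 33 in the Yki library and 2 in the control. Scaled to depth, the RNAi to control ratio was 7.19, with a counting interval of 1.92 to 60.4. The direction is the same as for LysB to LysE, but it rests on 2 control fragments.

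Eig71Ee, a late ecdysone puff gene whose product is mucin-like and which is known from salivary glands and blood cells, measured 0.570 FPKM in the RNAi library, 0.0876 FPKM in the Yki library and 0.128 FPKM in the control. It had about 23 fragments in the RNAi library, 2 in the Yki library and 1 in the control, and the RNAi to control ratio of 4.44 had an interval of 0.716 to 182.

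Gut serine protease RNA was close to the detection limit. Of the 29 Jonah, trypsin and related genes, 14 were listed at 0 in the RNAi library, 22 in the Yki library and 18 in the control. Listed at 0 in all 3 libraries were 10, namely Jon25Bii, Jon44E, Jon65Aii, Jon66Ci, Jon66Cii, Jon99Fii, betaTry, deltaTry, epsilonTry and gammaTry, while 5.65% of all genes were. Several of these, such as gammaTry and deltaTry, are near-identical copies for which reads may not have been assigned to either.

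The highest Jonah gene was Jon25Biii (chromosome 2L, 4949941 to 4950767), at 2.04 FPKM in the RNAi library and 1.08 FPKM in the control, while the Yki library listed it at 0. Its log2 ratio was 0.54, and the ratio without a pseudocount was 1.88, with an interval of 0.674 to 7.20, from about 39 fragments in the RNAi library and 4 in the control. Jon65Aiv (chromosome 3L, 6039155 to 6040135) measured 1.76 FPKM in the RNAi library, 0.478 FPKM in the Yki library and 0.234 FPKM in the control. Its fragments numbered about 38, 6 and 1 in the same order, and the RNAi to control ratio was 7.52, with an interval of 1.23 to 295. Jon74E ran the other way, at 0.379 FPKM in the RNAi library, 0.201 FPKM in the Yki library and 0.839 FPKM in the control, and its interval of 0.123 to 2.99 includes 1.

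Neighbouring Jonah genes did not have equal levels. In the 65A group on chromosome 3L, Jon65Aiv was the highest, Jon65Aiii had 0.435 FPKM and Jon65Ai 0.301 FPKM in the RNAi library, and Jon65Aii was listed at 0. The related protease gene yip7, next to this group, measured 0.834 FPKM in the RNAi library and 0.0819 FPKM in the Yki library and was listed at 0 in the control. In the 25B group on chromosome 2L, Jon25Biii was followed by Jon25Bi, at 0.629 FPKM in the RNAi library and listed at 0 in the other libraries. In the 99C group on chromosome 3R, Jon99Cii had 0.930 FPKM in the RNAi library and 0.254 FPKM in the control, and Jon99Ciii had 0.325 FPKM in the RNAi library and 0.241 FPKM in the control.

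Over the 12 Jonah genes whose fragments could be read back, 126 fragments lay in the RNAi library, 10 in the Yki library and 10 in the control. Scaled to depth, the RNAi to control ratio was 2.42, with a counting interval of 1.27 to 5.16. The 9 trypsins read back had 25 fragments in the RNAi library, 4 in the Yki library and 2 in the control, and their ratio of 2.40 had an interval of 0.597 to 20.9. The highest trypsin was iotaTry, with 0.528 FPKM in the RNAi library, 0.280 FPKM in the Yki library and a listed 0 in the control.

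The other protease genes and the starch and sterol genes were low as well. Ser8 was the member with the clearest lower value, at 0.0513 FPKM in the RNAi library and 0.798 FPKM in the control, from about 1 and 3 fragments, with a ratio of 0.0643 and an interval of 0.00122 to 0.796. Ser6 had about 1 fragment in the control and was listed at 0 in the RNAi and Yki libraries. Amy-d measured 0.112 FPKM in the RNAi library and 0.232 FPKM in the control, and Amy-p 0.0684 FPKM in the RNAi library and 0 in the control, and both amylases were listed at 0 in the Yki library. Amylase genes are near-identical copies, so reads may not be assigned to either.

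Npc2e, of a family of secreted sterol-binding proteins, measured 1.29 FPKM in the RNAi library, from about 18 fragments, and was listed at 0 in the control and the Yki library. An antisense RNA gene, asRNA:CR44192, shares 611 exonic bases with Npc2e, and whether the authors' counting used strand is not stated by the labels or notes, so the reads cannot be given to either. Npc2d had about 1 fragment, in the RNAi library.

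Depth bears on how many genes appear in the RNAi library and not in the control. There were 14 members listed at 0 in the control and above 0 in the RNAi library, and fragments could be read back for 11 of them. Scaled to the depth of the control, 8 of the 11 would have had under 3 fragments, and the largest expected number, for Npc2e, was 3.46. For those 8 genes, a difference between the Act libraries was not detectable at this depth. LysD does not depend on this, with about 47 fragments in the control. LysB and LysC were above 0 in both Act libraries, but the number of fragments behind their control values was not read back.

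Markers of other tissues differed in the same libraries, on lists chosen with earlier results of these data known. Fat body genes were abundant in both Act libraries, with a list median of 771 FPKM in the RNAi library, 3.58 FPKM in the Yki library and 983 FPKM in the control. Testis genes had list medians of 110 FPKM in the RNAi library, 0.0955 FPKM in the Yki library and 430 FPKM in the control. Of these, 10 of 10 passed 2-fold below the control, against 17% of all kept genes. The wing disc list had medians of 16.5 FPKM in the RNAi library, 80.5 FPKM in the Yki library and 12.7 FPKM in the control. This list includes Ubx, a Hox gene of the haltere rather than the wing, and the Yki median is the value of Ubx itself. In the Yki library the list ran from 30.8 FPKM for en to 138 FPKM for fng. The summed level of the 7 listed genes, Ubx included, was 262 FPKM in the RNAi library, 610 FPKM in the Yki library and 214 FPKM in the control. The part of tissue content in the lysozyme and glue differences was not tested, and in bulk RNA fewer cells of a type and less RNA per cell cannot be told apart.

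**Figure D4:**
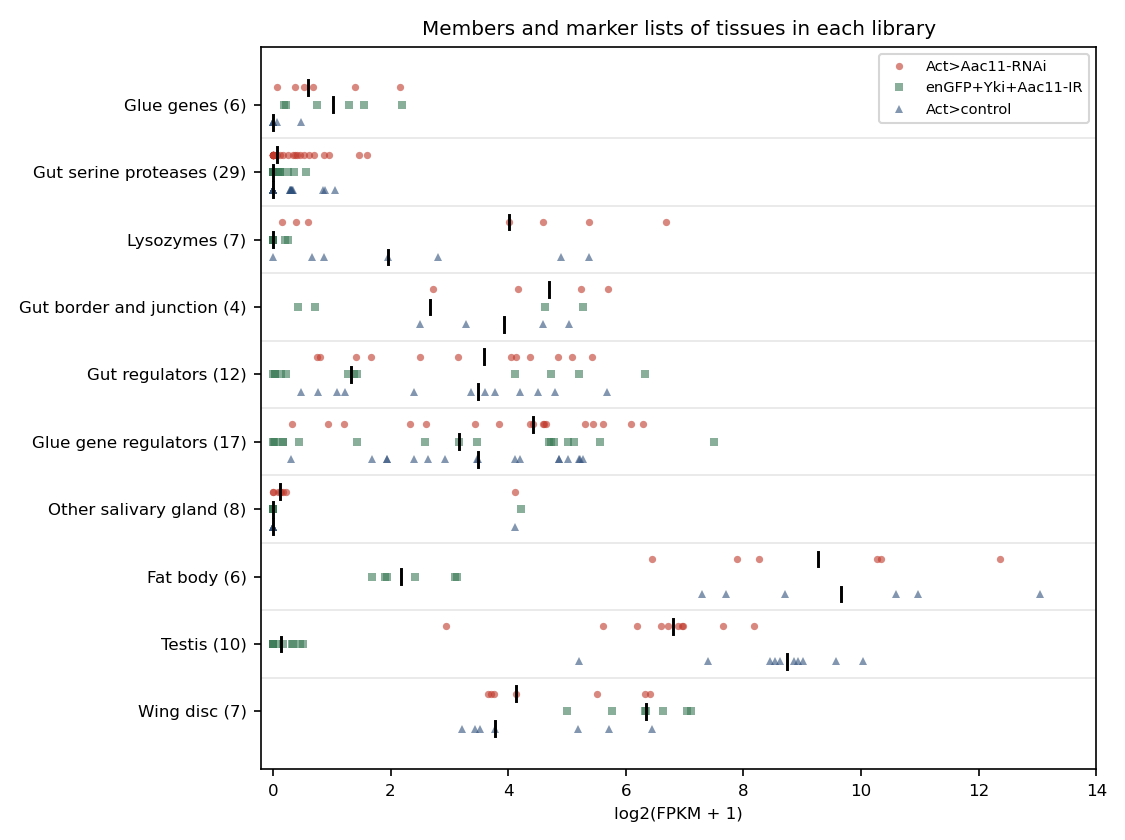
Levels, as log2(FPKM + 1), of glue genes, gut serine proteases and lysozymes and of marker lists of gut, salivary gland, fat body, testis and wing disc, with 1 point for each gene, a black bar at the list median and the number of genes in parentheses. Glue genes and gut serine proteases lie near 0 in all libraries, while fat body and testis genes lie high in both Act libraries and low in the Yki library. The wing disc list, Ubx included, lies high in the Yki library, where the median of all genes is 3.52 FPKM. In the Act libraries its median lies near that of all genes, 12.7 FPKM in the RNAi library and 15.4 FPKM in the control. The row labelled glue gene regulators holds the 17 salivary gland regulators and ecdysone response factors.

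Other gut genes were present at moderate levels in both Act libraries. The 4 matched brush border and septate junction genes all had at least 1 FPKM in both Act libraries, with a summed level of 110 FPKM in the RNAi library, 62.2 FPKM in the Yki library and 68.1 FPKM in the control. Most of the Yki sum came from Myo31DF, at 37.5 FPKM, and Myo61F, at 23.7 FPKM. There mex1 had 0.340 FPKM and Tsp2A 0.647 FPKM. The median log2 ratio of these 4 was 0.66, and 0 of them passed 2-fold. Among 12 gut regulators, 10 had at least 1 FPKM in the RNAi library, 7 in the Yki library and 10 in the control, and 0 of the 10 that passed the filter were past 2-fold in either direction. The highest of them in the Yki library, nub at 78.9 FPKM, is also on the wing disc list, so these counts do not measure gut content. Of 16 other digestive enzyme and lipid handling genes found in the tables, 10 passed the filter, with 1 higher and 1 lower past 2-fold. The higher one was Npc2b, at 106 FPKM in the RNAi library and 46.9 FPKM in the control, and the lower one Npc2h, at 3.12 FPKM in the RNAi library and 15.6 FPKM in the control. The 3 enteroendocrine peptide genes found had 0 members past 2-fold and at most 4.94 FPKM. Among all kept genes 3.7% were higher and 17% lower, so counts of 0 or 1 in lists this small say little.

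A list of 17 salivary gland regulators and ecdysone response factors had a median of 20.4 FPKM in the RNAi library, 7.96 FPKM in the Yki library and 10.2 FPKM in the control. The glue genes had medians of 0.516, 1.07 and 0 FPKM in the same order. Not every listed gene was higher, since 1 of the 17 lay below the glue median in the RNAi library, 6 did in the Yki library and 0 did in the control, where that median was 0. Of these 17, 16 passed the filter, 2 were at least 2-fold higher in the RNAi library and 0 were lower, with a median log2 ratio of 0.40. The shares over all kept genes were 3.7% higher and 17% lower, and the list is small. The transcription factor gene br, an early ecdysone gene needed for glue gene expression, measured 23.4 FPKM in the RNAi library, 181 FPKM in the Yki library and 6.64 FPKM in the control. Eip93F, a steroid-induced regulator of larval tissue death, measured 77.4 FPKM in the RNAi library, 0.126 FPKM in the Yki library and 36.5 FPKM in the control. These 2 were named because they passed 2-fold, and the list did not share 1 pattern. In the Yki library 11 of the 17 had at least 1 FPKM. Among the others, named after their values were seen, fkh measured 20.4 FPKM in the RNAi library, 0.0182 FPKM in the Yki library and 10.1 FPKM in the control. Scr measured 19.8, 0.131 and 16.3 FPKM in the same order. Many of these factors act in other tissues too. Of 8 other salivary gland genes found, 1 reached 1 FPKM in each library, slv, a sugar transporter gene named here after its values were seen, while 7 were listed at 0 in the control, 7 in the Yki library and 2 in the RNAi library.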

How the data were processed

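The authors deposited FPKM values for 3 libraries in 2 tables, which were normalized separately. CASAVA 1.4, TopHat2 2.0.12 and Cuffdiff 2.2.1, with build dm6, were used per the submitters' processing notes, which assign them no role here. Neither notes nor labels state the annotation, the strand setting or how libraries were scaled to each other. Per the labels, 4 µg of rRNA-depleted total RNA entered each library. All deposited columns were used.

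Members were selected by symbol, and the members, lists, filters and thresholds were chosen with earlier results of these data known. All 47 symbols matched RefSeq (Release 6 assembly), with the same coordinates in Ensembl 115 (BDGP6.54). To form the log2 ratio, 1 FPKM was added to the RNAi and to the control value, so changes of low genes are understated. Genes were kept at a mean of at least 1 FPKM over both Act libraries and called at 2-fold. Because a 0 may mean that estimation failed, a gene at 0 is said to be listed there, and limits from 3 fragments hold only if the 0 is a true count.

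Fragment numbers were read from FPKM steps. Depth and mean fragment length (215 nt for the RNAi library, 225 nt for the Yki library and 210 nt for the control) were fitted on 3612 genes with 1 transcript of 500 to 2000 nt, so that low values lay at whole fragments per effective length. Within 0.2 of a whole fragment lay 85.8% of low values in the RNAi library, 88.5% in the Yki library and 83.0% in the control, where 40% would by chance. For members, 30 of 33 low values did. Fragments were read back for 37 members with 1 transcript of at least 400 nt, and not for the other 10. Floors are 3 fragments, and floors and exact binomial intervals cover counting error only, with no correction for PCR copies made here. Named members have a mean of at least 1 FPKM over both Act libraries or reach 1 FPKM in the Yki library, the rest being given by counts, by name where listed at 0 in all libraries, or, chosen after their values were seen, to show the order within a family. On simulated data for the RNAi to control comparison, 99% of 200 genes changed 4-fold were recovered among 2478. The simulation held counting noise only and genes with 1 transcript of 500 to 2000 nt, and the changed genes had a mean of at least 5 FPKM. Only 4 members reach that mean, and of these LysC, at 242 nt, and LysD, at 480 nt, lie outside the simulated lengths. The recovered share therefore does not carry over to most members. Python 3.11.15, numpy 2.4.6, pandas 2.3.3, scipy 1.17.1 and matplotlib 3.10.9 were used. Alternatives covered the pseudocount, scaling, filter and definition of presence, and, added after seeing the data, the sum of LysB to LysE and presence by 3 fragments. Sequences were not analysed here.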

Additional observations from a re-analysis of the deposited data

How the results depend on the processing

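LysB, LysC and LysD were at least 2-fold higher in the RNAi library under every pseudocount, scaling and filter tried, and 0 members were at least 2-fold lower under any of them. With LysB to LysE summed as 1 gene, an alternative added after seeing the data, 2 members instead of 4 were higher and the median log2 ratio was 0.93. With a pseudocount of 0.1 FPKM, 5 of 7 kept members were higher (Sgs5 added), against 552 of all 11330 kept genes. With 5 FPKM, 3 of 7 were (without Sgs7), against 245 of 11330. With the median ratio set to 0, 5 of 8 were (Jon65Aiv added), against 466 of 11340. Equal upper quartiles gave 6 of 8 (Sgs5 and Jon65Aiv added), against 819 of 11416. Equal sums gave the same 6 of 8, against 569 of 11437. With no filter, 6 of 47 were (Jon65Aiv and Npc2e added), against 463 of 13990. A filter at 5 FPKM gave 3 of 4 (without Sgs7), against 292 of 9588. Sgs5 and Jon65Aiv passed the filter only through the RNAi library. The median log2 ratio of the members, 1.78, was 1.84 with a pseudocount of 0.1 FPKM, 0.76 with 5 FPKM, 1.52 with the median ratio of genes of at least 10 FPKM set to 0, 1.73 with equal upper quartiles, 1.61 with equal sums and 0.067 with no filter. Sgs7 was past 2-fold with pseudocounts of 1 and 0.1 FPKM and not with 5 FPKM, at 0.76. Over all genes, 245 instead of 419 were higher with a pseudocount of 5 FPKM. Equal upper quartiles gave 819 higher and 1704 lower genes, 32.5% of calls being higher against 17.9% as deposited, and the median log2 ratio of all genes was 0.26 instead of -0.03. Presence depended on its definition. Above 0 FPKM were 33 members in the RNAi library, 16 in the Yki library and 21 in the control; at least 5 FPKM had 4, 0 and 3 in the same order; and at least 3 fragments, added after seeing the data, had 21, 5 and 5. Under other pseudocounts and scalings, all 25 log2 ratios of LysD, LysX, Sgs5, Jon25Biii and Jon65Aiv stayed within the counting interval. That interval is of the deposited ratio without a pseudocount. For Sgs5, Jon25Biii and Jon65Aiv it is so wide that staying within it shows little. The log2 ratio of Jon65Aiv was 2.48 with a pseudocount of 0.1 FPKM and 0.37 with 5 FPKM. LysB, LysC and Sgs7 have no interval to hold their 15 against. The control, the shallowest library, limits all members under about 1 FPKM. No paired analysis was possible because each group has 1 library.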
